A study of Mus musculus with 47 samples.

Results

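The genes that carry calcium into neurons, release it from internal stores and pump it out again were followed through the time course of chronic intermittent ethanol (CIE). They were taken as every gene whose symbol starts with Cacn, Ryr, Itpr followed by a digit, Atp2a or Atp2b, on probesets listed with exactly 1 symbol, and each gene was read from its brightest probeset. The rule gave 33 genes of 18193 on the array and 78 probesets of 45037. The beta subunit genes (Cacnb), which belong to the same channels, were read beside them as a separate group of 3 genes with 9 probesets. Itpr1, Cacna1i and Cacnb3 were not analysed here.

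The mice were C57BL/6J males, adult at the time of exposure, and the medial part of the prefrontal cortex (PFC) of 1 mouse gave the RNA for each array. CIE mice breathed air with 10 to 13 mg/l ethanol in 4 cycles, each of 4 days at 16 h per day and 7 days of abstinence, and were given 1.6 g/kg ethanol with 1 mmol/kg pyrazole, an inhibitor of alcohol dehydrogenase, ahead of each cycle. Ctrl mice breathed plain air in the same chambers and were given saline with the same pyrazole, so every group carried the inhibitor. Tissue was taken at 1 of 4 times counted from the end of the final exposure (0h, 8h, 72h and 7d), and the resulting 8 groups held 6 mice each except CIE 8h, which held 5. The values were log2 intensities on the Affymetrix Mouse430_2 array after RMA (robust multi-array average), and all differences are CIE minus Ctrl on the log2 scale.

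Voltage-gated calcium channels open when a neuron is depolarized. Each is built around a pore-forming alpha1 subunit, helped by an alpha2delta and a beta subunit, and the calcium that enters triggers transmitter release, shapes firing and starts signals to the nucleus. Ryanodine receptors and IP3 receptors let calcium out of the endoplasmic reticulum (ER), the pumps of the Atp2a family put it back, and the pumps of the Atp2b family expel it across the plasma membrane. Voltage-gated calcium channels are long-known targets of acute ethanol.

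Arrays resembled each other closely, with mean correlations to the other arrays between 0.967 and 0.994, and the array of CIE 8h mouse 15 was the lowest. Cortical excitatory neuron markers averaged between 10.3 and 10.9 in every mouse. The mean of 16 markers of striatal medium spiny neurons, a neighbouring region, was above 9 in 8 mice (3 of CIE 0h, 2 of CIE 72h, 1 of CIE 7d and 2 of Ctrl 7d, 9.07 to 9.98) and between 7.88 and 8.76 in the other 39. At 0h all 16 markers had a higher mean in CIE than in Ctrl (median 0.68), and 0 of 16 passed FDR ≤ 0.01 in limma, where 7.41% of all genes did (11 of 16 at an unadjusted p of 0.05 or less, beside 28.5% of all genes). The labels also split the 8h mice into 2 repeat groups (3 Ctrl and 3 CIE in group 1, 3 Ctrl and 2 CIE in group 2), and the other times held group 1 alone.

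Few of these genes passed FDR ≤ 0.01, as few of all genes did, and a gene that did not pass was not shown to be unchanged. In the limma fit over all probesets at FDR ≤ 0.01, 1 of 33 genes passed at 0h, where 7.41% of all genes did, 1 of 33 at 8h (3.53% of all genes), 0 of 33 at 72h (0.440%) and 0 of 33 at 7d (0.737%). The gene at 0h was Itpr2, an IP3 receptor, which rose (4.01% of all genes did), and the gene at 8h was Cacna1s, a pore subunit best known from skeletal muscle, which fell (1.26% did). At an unadjusted p of 0.05 or less, limma gave 7, 8, 2 and 2 of 33 genes at 0h, 8h, 72h and 7d, beside 28.5%, 27.4%, 13.1% and 16.6% of all genes. The median difference over the 33 genes was 0.05 at 0h, beside 0.01 over all genes, and 0.00 or -0.01 at the later times, beside 0.02, 0.00 and -0.01. The median size of the difference, whatever its sign, was 0.14, 0.13, 0.06 and 0.07 at the 4 times, beside 0.11, 0.12, 0.08 and 0.09 over all genes. Of the 3 Cacnb genes, 0 passed at any time (unadjusted p of 0.05 or less for 1, 1, 1 and 0).

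**Figure D1:**
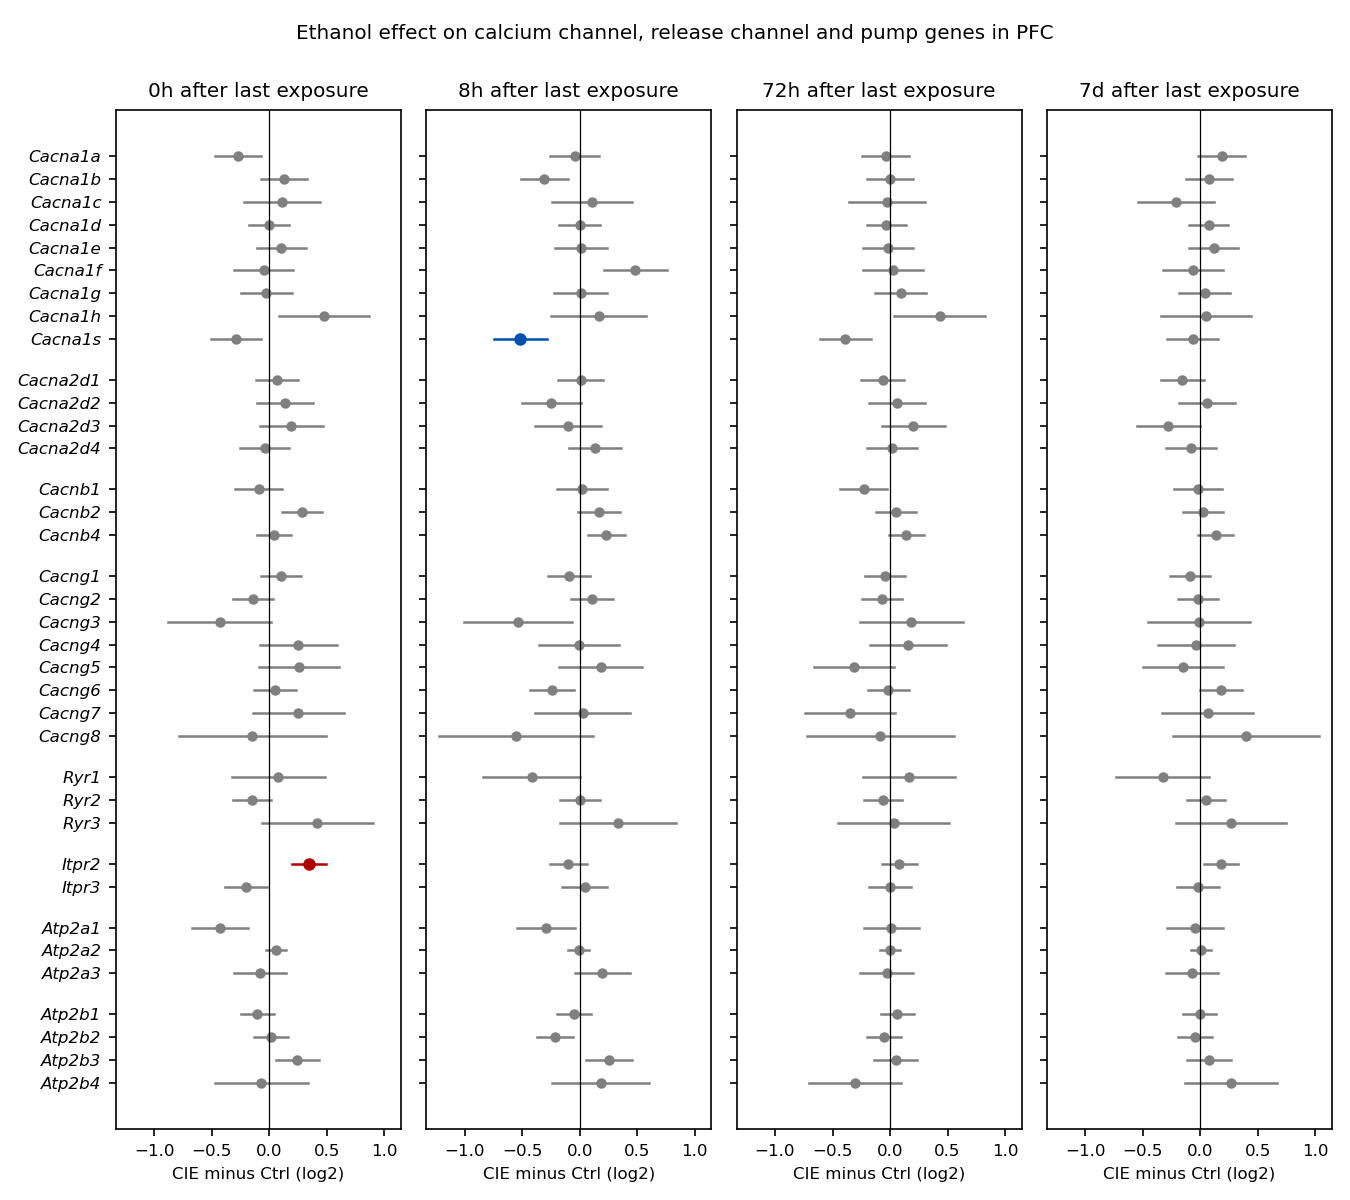
CIE minus Ctrl on the log2 scale for the brightest probeset of 36 calcium channel, release channel and pump genes at each time after the last exposure; points are the fitted differences, lines their 95% confidence intervals, and colour marks the differences that passed FDR ≤ 0.01. Only Itpr2 at 0h (red, higher) and Cacna1s at 8h (blue, lower) are coloured, and the widest intervals are those of Cacng8.

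Itpr2 encodes an IP3 receptor, the channel through which the second messenger IP3 releases stored calcium, and in the brain it is best known from astrocytes. At 0h the 6 Ctrl mice had a lowest level of 7.02, a median of 7.16 and a highest of 7.29, and the 6 CIE mice 7.38, 7.50 and 7.60. Every CIE mouse lay above every Ctrl mouse, as happened without regard to direction in 2 of 33 genes and 6.73% of all genes at 0h, and in 0 of 33 and 6.68% at 8h. The means were 7.15 ± 0.12 in Ctrl and 7.50 ± 0.086 in CIE (SD, n = 6 each), a difference of 0.34 (SE 0.075), or 1.27-fold (adjusted p = 0.00140). In tissue RNA, more cells of a type and more RNA per cell cannot be told apart. Of 7 astrocyte markers, 0 passed at 0h in limma, beside 7.41% of all genes. At an unadjusted p of 0.05 or less there was 1 (28.5% of all genes), S100b, at -0.40 with an adjusted p of 0.0295. Of the 7, 2 had a higher and 5 a lower mean in CIE (median -0.10). Their mean level at 0h was 10.5 to 10.8 in Ctrl and 10.4 to 10.7 in CIE.

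At 8h the Ctrl mice ran from 7.20 to 7.53 with a median of 7.41, and the 5 CIE mice measured 7.06, 7.09, 7.36, 7.47 and 7.47. The groups overlapped, and the lowest pair of CIE values came from the 2 CIE mice of repeat group 2. The difference was -0.10 (adjusted p = 0.427), 0.04 within repeat group 1 and -0.31 within repeat group 2. At 72h Ctrl mice ran from 7.13 to 7.42 (median 7.26) and CIE mice from 7.13 to 7.50 (median 7.38), and at 7d Ctrl mice from 7.11 to 7.54 (median 7.26) and CIE mice from 7.36 to 7.59 (median 7.47). These differences were 0.08 and 0.18 (adjusted p = 0.712 and 0.182), with overlap at both times and 6 of 6 CIE mice above the Ctrl mean at 7d. The Ctrl mean itself was 7.15 at 0h and 7.39 at 8h, and the test over the 4 Ctrl groups did not pass (adjusted p = 0.167).

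The ethanol effect on Itpr2 was lower at 8h than at 0h by 0.44 on the log2 scale (-0.44, SE 0.11, adjusted p = 0.00719). It was the only 1 of 33 genes to pass this comparison, which 3.45% of all genes passed. The call was lost when any 1 of 13 of the 23 mice was left out (adjusted p up to 0.0206) and with the striatal marker mean as a term (-0.45, adjusted p = 0.0104). Within repeat group 1 alone the difference between times was -0.30 (adjusted p = 0.0934). Between 72h and 0h, and between 7d and 0h, 0 of 33 genes passed in limma (1.71% and 0.363% of all genes), with 4 and 3 of 33 genes at an unadjusted p of 0.05 or less (19.6% and 16.6%).

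The rise of Itpr2 at 0h rested on its brightest probeset, 1427287_s_at, whose suffix marks probes that match several transcripts. The other 5 probesets of the gene did not pass at 0h. Their differences were 0.17 for 1424834_s_at, 0.13 for 1421678_at, -0.07 for 1427693_at, -0.07 for 1424833_at and -0.25 for 1444418_at. The last of these, with a mean near 4.58 in Ctrl and 4.33 in CIE, pointed the other way without overlap of the groups (adjusted p = 0.0611). The mean over the 6 probesets differed by 0.04 (adjusted p = 0.695).

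The promoter windows of the 2 genes that passed are shown for their base composition and motifs, each from 250 bases before to 50 after the start of the gene in RefSeq on GRCm38.p6, read 5′ to 3′ on the gene's strand. Capitals mark GC boxes (GGGCGG on either strand) and CCAAT boxes (CCAAT on either strand). The Itpr2 window lies at chr6:146502174-146502473 on the minus strand and the Cacna1s window at chr1:136052561-136052860 on the plus strand.
Itpr2: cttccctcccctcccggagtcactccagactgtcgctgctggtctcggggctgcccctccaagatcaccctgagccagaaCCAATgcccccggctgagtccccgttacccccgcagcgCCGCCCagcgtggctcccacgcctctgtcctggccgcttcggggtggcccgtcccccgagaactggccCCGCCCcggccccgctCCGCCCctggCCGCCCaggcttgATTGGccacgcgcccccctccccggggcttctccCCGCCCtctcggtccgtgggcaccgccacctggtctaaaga
Cacna1s: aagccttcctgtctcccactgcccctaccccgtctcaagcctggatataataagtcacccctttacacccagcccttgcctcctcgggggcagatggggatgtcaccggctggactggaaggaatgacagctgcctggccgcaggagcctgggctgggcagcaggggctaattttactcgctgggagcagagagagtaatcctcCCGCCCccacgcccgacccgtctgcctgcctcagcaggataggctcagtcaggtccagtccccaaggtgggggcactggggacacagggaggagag
The Itpr2 window was 73.3% G and C, with 26 CG pairs, 5 GC boxes and 2 CCAAT boxes. The Cacna1s window was 63% G and C, with 9 CG pairs and 1 GC box. Over 32851 promoter windows of the same length the medians were 52.7% and 7 CG pairs, 35.7% held a GC box and 37.4% a CCAAT box. Neither window held TATAAA (13.6% of all windows), TGACGTCA, the cAMP response element (1.79%), TGANTCA, the AP-1 site (7.81%), or AGAACA, the glucocorticoid half-site (19%), on either strand. Of the 33 genes, 24 had a window, and of these 17 held a GC box, 9 a CCAAT box, 4 AGAACA, 1 TATAAA, 1 TGANTCA and 0 TGACGTCA. A gene was counted if any of its windows held the motif, whereas the shares above count single windows, so the 2 are not directly comparable.

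Among the 9 pore subunits, Cacna1s fell at 8h. Its product is the L-type pore that acts as the voltage sensor of skeletal muscle, and its probeset, 1420442_at, was dim, with group means between 4.27 and 4.98. At 8h the Ctrl mice measured at lowest 4.52, at the median 5.07 and at highest 5.38, and the 5 CIE mice 4.25, 4.49, 4.51, 4.53 and 4.55. The CIE mice lay together below 5 of 6 Ctrl mice, with overlap through 1 Ctrl mouse. The difference was -0.52 (4.98 ± 0.32 in Ctrl, n = 6, and 4.47 ± 0.12 in CIE, n = 5, adjusted p = 0.00330), -0.69 within repeat group 1 and -0.37 within repeat group 2.

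At 0h Cacna1s measured from 4.37 to 4.73 in Ctrl (median 4.58) and from 4.08 to 4.45 in CIE (median 4.26), at 72h from 4.71 to 5.13 (median 4.87) and from 4.38 to 4.63 (median 4.50), and at 7d from 4.52 to 4.98 (median 4.72) and from 4.35 to 4.87 (median 4.75). The groups did not overlap at 72h, a state shared by 1 of 33 genes and 1.86% of all genes at that time, and overlapped at 0h and 7d. The differences were -0.29, -0.39 and -0.07 (adjusted p = 0.0647, 0.0448 and 0.811). Over the 4 times together, 2 of 33 genes passed the F test of the ethanol effects, Cacna1s (adjusted p = 2.65e-04) and Itpr2 (adjusted p = 0.00200), where 13.1% of all genes passed. Without any 1 of Ctrl 8h mice 66, 75 and 79 or CIE 8h mouse 23, the adjusted p of Cacna1s at 8h was 0.0112, 0.0119, 0.0159 and 0.0148 for differences of -0.49, -0.48, -0.43 and -0.46.

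**Figure D2:**
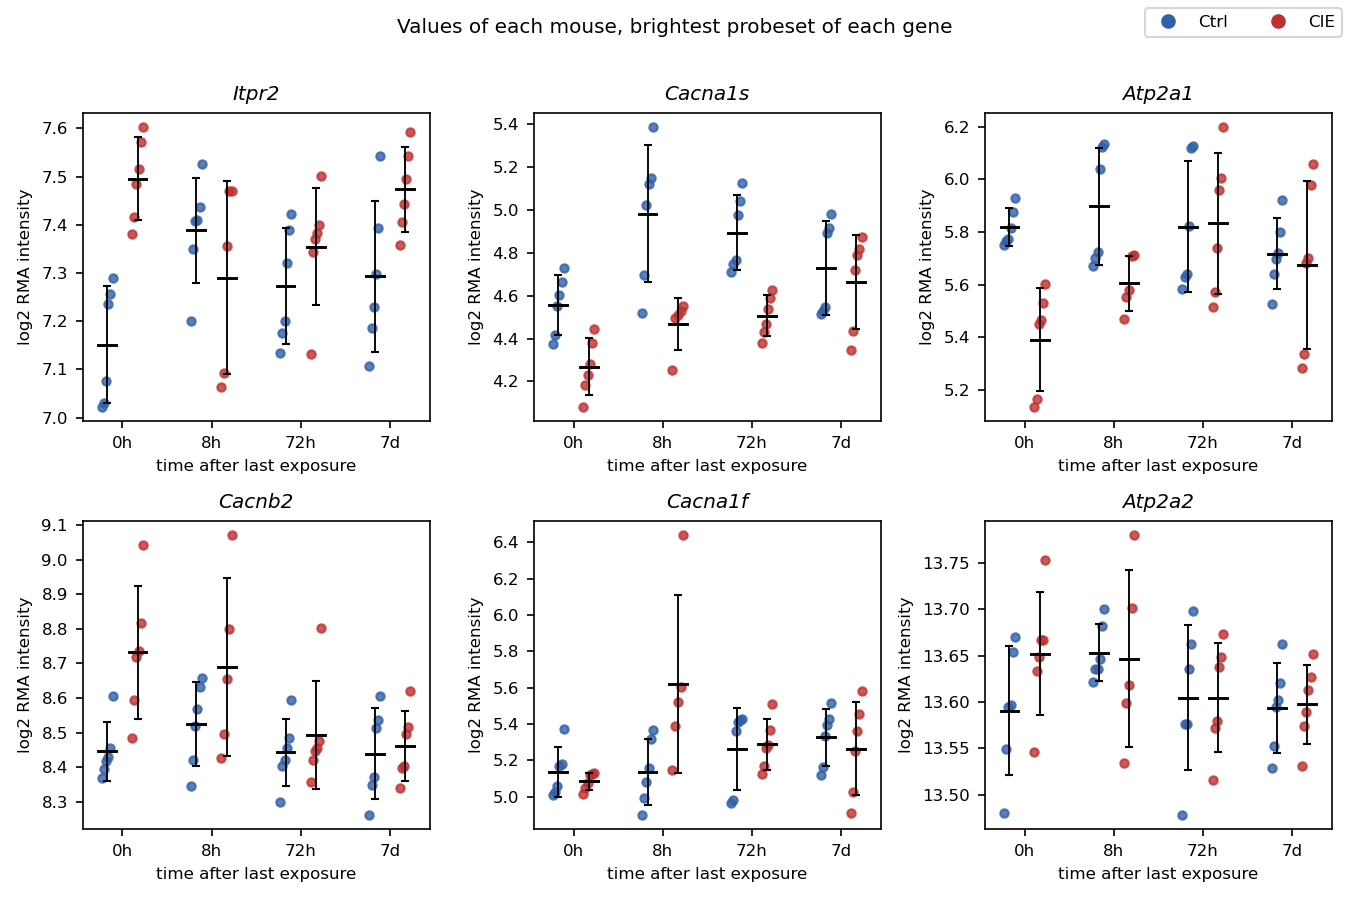
Log2 RMA intensity of each mouse on the brightest probeset of 6 genes, by time after the last exposure, with Ctrl in blue and CIE in red; black marks are the group mean and SD, and each panel has its own vertical axis. Ctrl and CIE mice do not overlap for Itpr2 and Atp2a1 at 0h and for Cacna1s at 72h, the high Cacna1f value at 8h is CIE mouse 15 at 6.44, and the axis of Atp2a2 spans less than any other.

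The pore subunits of the channels that drive transmitter release did not pass at any time. Cacna1a, the P/Q-type pore, differed by -0.27 at 0h (8.47 ± 0.34 and 8.20 ± 0.16, adjusted p = 0.0590), -0.04 at 8h and 72h and 0.18 at 7d. Cacna1b, the N-type pore, differed by 0.13 at 0h and by -0.31 at 8h (10.15 ± 0.11 and 9.84 ± 0.35, adjusted p = 0.0468). The difference at 8h was 0.00 within repeat group 1 and -0.72 within repeat group 2, and -0.17 without CIE 8h mouse 15. Cacna1e, the R-type pore, differed by 0.10, 0.01, -0.02 and 0.12 at the 4 times.

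Of the L-type pores of the brain, Cacna1d stayed within narrow limits, with differences of 0.00, 0.00, -0.03 and 0.07 and 95% intervals that lay within ±0.25 at all 4 times. Cacna1c differed by 0.11, 0.10, -0.02 and -0.21. Cacna1f, the L-type pore of the retina, gave the largest positive difference at 8h, 0.48 (5.14 ± 0.18 and 5.62 ± 0.49, adjusted p = 0.0173). Its 5 CIE values at 8h were 5.15, 5.39, 5.52, 5.60 and 6.44, the highest in CIE mouse 15, and without that mouse the difference was 0.28 (adjusted p = 0.135). The gene passed with repeat group as a term (0.53, adjusted p = 0.00257), with array weights (0.39, adjusted p = 0.00245) and without CIE mouse 40 (0.60, adjusted p = 0.00362).

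The T-type pores, which open near the resting potential and support burst firing, also did not pass. Cacna1h differed by 0.47 at 0h (7.63 ± 0.34 and 8.11 ± 0.46, adjusted p = 0.0934) and 0.43 at 72h (7.69 ± 0.26 and 8.12 ± 0.25, adjusted p = 0.289). With the striatal marker mean of each mouse as a term the 0h value was 0.32 (adjusted p = 0.328). Cacna1g differed by at most 0.09 in size, at 72h.

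The alpha2delta subunits carry channels to the membrane, and Cacna2d1 and Cacna2d2 encode the binding proteins of gabapentin. All 4 of these genes stayed between -0.28 and 0.20 at every time, and 0 passed (7.41%, 3.53%, 0.440% and 0.737% of all genes did). Cacna2d3 gave both ends of this range, 0.20 at 72h and -0.28 at 7d, where 6 of 6 CIE mice lay below the Ctrl mean (adjusted p = 0.275). A dim probeset of Cacna2d1, 1440397_at, fell at 0h from 5.88 ± 0.29 to 5.30 ± 0.17 (-0.58, adjusted p = 0.00199). Its Ctrl mice ran from 5.51 to 6.29 with a median of 5.92 and its CIE mice from 5.04 to 5.51 with a median of 5.29, so that the groups met only at their edges. The brightest probeset of Cacna2d1 differed by 0.07 at 0h, and the other 3 by -0.30, -0.11 and 0.01.

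The beta subunits hold the pore at the membrane and set its gating. Cacnb2 differed by 0.29 at 0h (8.45 ± 0.084 and 8.73 ± 0.19, adjusted p = 0.0191), and it passed on the mean of its probesets (0.32, adjusted p = 0.00290), with array weights (0.29, adjusted p = 0.00395), in repeat group 1 alone (adjusted p = 0.00645) and without CIE 0h mouse 72 (0.34, adjusted p = 0.00766). Of 12 settings other than leaving out a mouse, it passed in 5, each at its own threshold, and did not in 7. The difference ran from 0.21 to 0.36 over these 12 (adjusted p up to 0.107). The Ctrl mice ran from 8.37 to 8.61 (median 8.42) and the CIE mice from 8.48 to 9.04 (median 8.73), with overlap. Its other probeset, 1452476_at, rose at 0h from 7.28 ± 0.18 to 7.64 ± 0.23 (0.36, adjusted p = 0.00681). That call was lost without any 1 of Ctrl 0h mice 12, 48, 56 and 78 or CIE 0h mice 5, 17 and 43 (0.31 to 0.36, adjusted p up to 0.0310), with the striatal marker mean as a term (0.33, adjusted p = 0.0289) and with 0h arrays alone (adjusted p = 0.0459). Cacnb4 differed by 0.23 at 8h (adjusted p = 0.0476), by 0.07 within repeat group 1, 0.47 within repeat group 2 and 0.15 without CIE 8h mouse 15. Cacnb1 differed most at 72h, by -0.23 (adjusted p = 0.279).

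The Cacng family holds the gamma subunits of muscle channels, Cacng1 and Cacng6, and the TARPs, which escort AMPA receptors to the synapse. None of the 8 genes passed at any time, beside 7.41%, 3.53%, 0.440% and 0.737% of all genes. At an unadjusted p of 0.05 or less limma gave 0, 2, 0 and 0, beside 28.5%, 27.4%, 13.1% and 16.6%. Cacng2, which encodes stargazin, differed by -0.14, 0.10, -0.07 and -0.02. Cacng3 differed by -0.43 at 0h and -0.53 at 8h (adjusted p = 0.191 and 0.122), and the 8h value was -0.19 within repeat group 1, -1.11 within repeat group 2 and -0.25 without CIE 8h mouse 15. Cacng8 was the least certain gene, with 95% intervals that reached from -1.22 to 0.11 at 8h. Cacng6 at 7d was the 1 of 33 genes without overlap at that time, where 3.29% of all genes had none, with a difference of 0.18 at group means of 4.15 and 4.32 (adjusted p = 0.302).

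Ryanodine receptors open in response to calcium itself. Of their 3 genes, 0 passed at any time, beside 7.41%, 3.53%, 0.440% and 0.737% of all genes. Ryr2, known from heart and brain, differed by -0.15, 0.00, -0.06 and 0.05. Ryr1, known from skeletal muscle, differed by -0.42 at 8h (adjusted p = 0.181) and -0.33 at 7d. The 8h value was -0.17 within repeat group 1, -0.81 within repeat group 2 and -0.16 without CIE 8h mouse 15. Ryr3 differed by 0.42, 0.33, 0.03 and 0.27, and the Ctrl and CIE mice overlapped at every time. Without CIE 7d mouse 7, the 7d value was 0.07.

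Ryr3 and the TARP gene Cacng4 were high in the mice with high striatal markers. In the 8 mice with a marker mean above 9, Ryr3 measured from 9.11 to 10.0 (median 9.41), and in the other 39 mice from 7.81 to 9.51 (median 8.76). Cacng4 measured from 8.77 to 9.44 (median 9.28) in the 8 mice and from 8.08 to 8.95 (median 8.55) in the 39. With the marker mean added to the 8 group means, the slope was 0.64 per log2 unit for Ryr3 (SE 0.081, adjusted p = 4.05e-07) and 0.48 for Cacng4 (SE 0.048, adjusted p = 1.27e-09). These were the 2 of 33 genes that passed, where 2.65% of all genes did. Of the other Ryr3 probesets, 1432133_at passed (0.44, adjusted p = 1.00e-04) and 1452533_at did not (0.40, adjusted p = 0.0282). The other Cacng4 probeset, 1455230_at, passed (0.29, adjusted p = 9.61e-04). Since the mice fall into 2 clusters of marker level, the slope on the brightest probeset was also taken within the 39 mice. There it was 0.99 for Ryr3 (adjusted p = 0.0162) and 0.47 for Cacng4 (adjusted p = 0.0437), and 0 of 33 genes passed. The share of all genes that passed within the 39 mice was not taken, so the 0 cannot be set beside it. Without the marker term, the 0h differences of Ryr3 and Cacng4 were 0.42 and 0.25 and did not pass (adjusted p = 0.251 and 0.324). With the term they were -0.05 and -0.10, and that of Itpr2 was 0.35 (adjusted p = 0.00350). At 0h the marker mean was above 9 in 3 of 6 CIE and 0 of 6 Ctrl mice, so ethanol and marker level cannot be told apart.

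**Figure D3:**
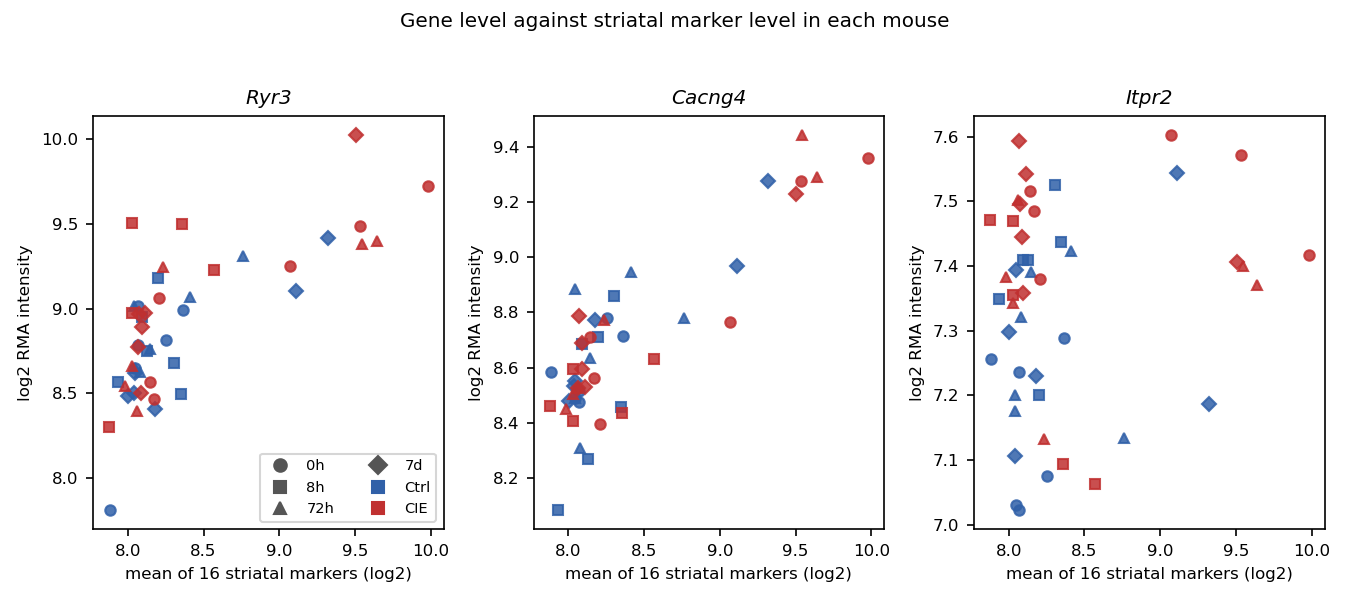
Log2 RMA intensity of Ryr3, Cacng4 and Itpr2 against the mean log2 level of 16 striatal markers, 1 point per mouse, with Ctrl in blue, CIE in red and the shape giving the time after the last exposure. Ryr3 and Cacng4 lie high in the 8 mice with a marker mean above 9, whereas Itpr2 varies from mouse to mouse at low and high marker levels alike.

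The other IP3 receptor, Itpr3, differed by -0.20 at 0h (5.17 ± 0.18 and 4.97 ± 0.13, adjusted p = 0.128), opposite in sign to Itpr2, and by 0.04, 0.00 and -0.02 later.

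The main ER pump had the narrowest limits of the 33 genes. Atp2a2, the ER pump of most cells, measured from 13.5 to 13.8 over all 47 mice, and its differences of 0.06, -0.01, 0.00 and 0.00 had 95% intervals within ±0.15. Atp2b1, a widely expressed plasma membrane pump, differed by -0.10, -0.05, 0.06 and -0.01. With Cacna1d, these were the 3 of 33 genes whose intervals lay within ±0.25, or 1.19-fold, at all 4 times, and 17 of 33 lay within ±0.5, or 1.41-fold.

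Atp2a1, the ER pump of fast skeletal muscle, came close to the threshold at 0h. Its Ctrl mice ran from 5.75 to 5.93 (median 5.80) and its CIE mice from 5.13 to 5.60 (median 5.46). The groups did not overlap, and the difference was -0.43 (5.82 ± 0.071 and 5.39 ± 0.20, adjusted p = 0.0120). With the striatal marker mean of each mouse as a term, the 0h difference was -0.36 (adjusted p = 0.0540). At 8h it was -0.29 (adjusted p = 0.118), -0.48 within repeat group 1 and -0.11 within repeat group 2. It was 0.01 at 72h and -0.04 at 7d. Because Cacna1s and Atp2a1 are best known from muscle, 5 muscle markers were read beside them. Of the 5, 0 passed at any time, beside 7.41%, 3.53%, 0.440% and 0.737% of all genes. At an unadjusted p of 0.05 or less limma gave 2, 0, 1 and 1, beside 28.5%, 27.4%, 13.1% and 16.6%. At 0h Tnni2 (-0.30, adjusted p = 0.0117) and Ckm (-0.14) were lower in CIE, and Acta1 (0.25), Myh7 (0.38) and Tnnt2 (0.21) higher. The mean level of the 5 markers was 6.55 to 6.86 in Ctrl and 6.71 to 7.00 in CIE at 0h, and 6.49 to 6.83 and 6.62 to 6.85 at 8h.

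Of the other pumps, Atp2b3, a plasma membrane pump of neurons, differed by 0.24 at 0h and 0.25 at 8h (adjusted p = 0.0722 and 0.0818). The 8h value was 0.05 within repeat group 1, 0.54 within repeat group 2 and 0.15 without CIE 8h mouse 15, and the 0h value was 0.15 without CIE 0h mouse 17. Atp2b2, also a neuronal pump, differed by -0.22 at 8h (adjusted p = 0.0609), -0.12 within repeat group 1 and -0.37 within repeat group 2. Atp2a3 and Atp2b4 differed by at most 0.30 in size at every time. A dim probeset of Atp2a2, 1443551_at, rose at 0h from 4.70 ± 0.24 to 5.32 ± 0.11 (0.62, adjusted p = 0.00651), without overlap of Ctrl (4.40 to 5.02, median 4.64) and CIE (5.18 to 5.41, median 5.36), whereas the other 5 probesets of the gene differed by -0.14 to 0.14. The call of the dim probeset was lost without any 1 of Ctrl 0h mice 2, 20, 48 and 56 or CIE 0h mice 11, 43, 67 and 72 (0.56 to 0.62, adjusted p up to 0.0196). Over all 78 probesets of the 33 genes, 2 were higher and 1 lower at 0h (7.28% of all probesets passed), 1 was lower at 8h (3.39%) and 0 passed at 72h (0.528%) and 7d (0.948%).

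**Figure D4:**
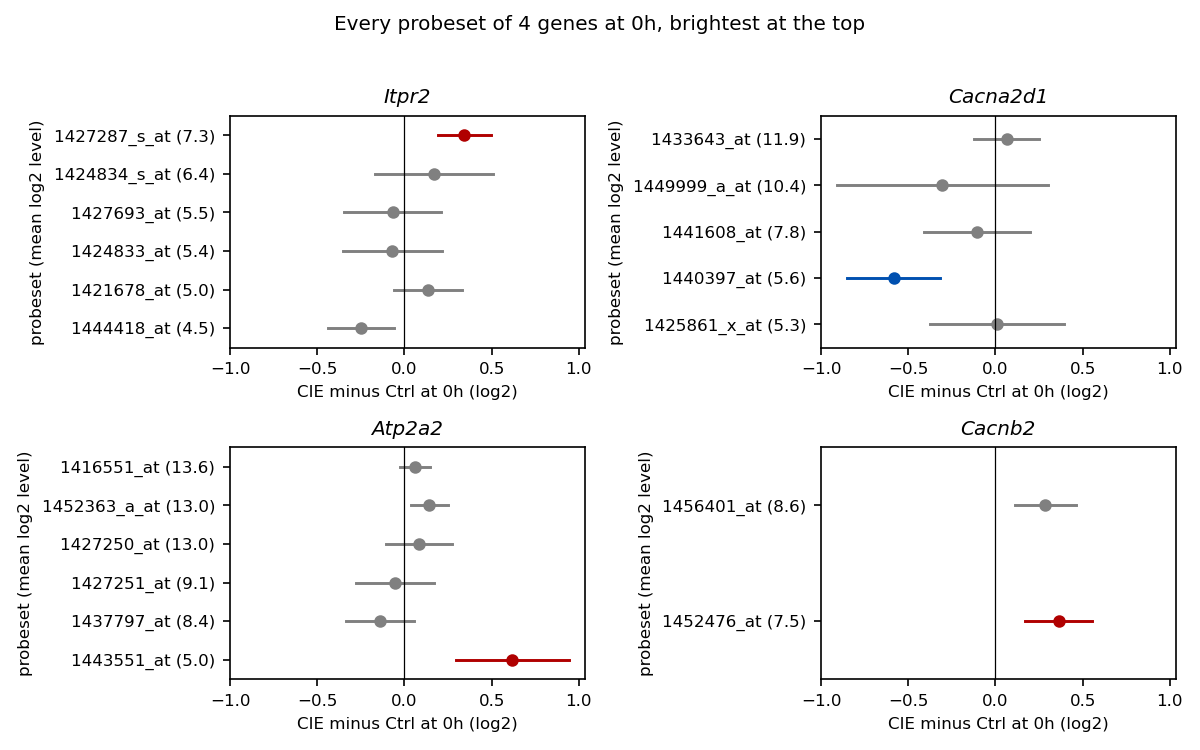
CIE minus Ctrl at 0h on the log2 scale for every probeset of Itpr2, Cacna2d1, Atp2a2 and Cacnb2, ordered by mean level (in parentheses) with the brightest at the top; lines are 95% confidence intervals and colour marks FDR ≤ 0.01. In each gene 1 probeset is coloured, and it is the brightest for Itpr2 alone.

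Across the harvest times in Ctrl mice, 0 of 33 genes passed the limma test over the 4 Ctrl groups (1.51% of all genes did), with 3 of 33 at an unadjusted p of 0.05 or less (20.1%). Cacna1s came closest, with Ctrl means of 4.56, 4.98, 4.89 and 4.73 at 0h, 8h, 72h and 7d (adjusted p = 0.0353).

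Genes that act with these channels and pumps were read in 6 lists, and those that passed did so at 0h and 8h alone, with 0 in every list at 72h and 7d (0 to 4 genes a list at an unadjusted p of 0.05 or less in limma). Each was read from its brightest probeset. Of all genes, 7.41%, 3.53%, 0.440% and 0.737% passed at 0h, 8h, 72h and 7d. At an unadjusted p of 0.05 or less in limma the shares were 28.5%, 27.4%, 13.1% and 16.6%. Among 24 measured partners of calcium channels, 2 of 24 fell at 0h and 0 passed at 8h (8 of 24 at an unadjusted p of 0.05 or less in limma). They were Rrad, a small GTPase that inhibits calcium channels (-0.53, adjusted p = 0.00650), and Stac3, an adaptor of the muscle channel (-0.33, adjusted p = 0.00773). Among 31 regulators of stores and release channels, 3 of 31 passed at 0h, 2 higher and 1 lower, and 2 of 31 at 8h, 1 in each direction. Casq1, a calcium-binding protein of the store, rose at 0h from 5.92 ± 0.28 to 6.87 ± 0.36 (0.95, adjusted p = 1.40e-05), and Orai3, a pore of store-operated entry, rose by 0.46 (adjusted p = 0.00289). Pln, the inhibitor of the Atp2a pumps known from heart, fell by 0.32 on the log2 scale at 0h (adjusted p = 0.00607). At 8h Homer1, a scaffold that ties glutamate receptors to IP3 receptors, rose by 0.31 (adjusted p = 0.00674), and Ahcyl1, which competes with IP3 at its receptor, fell by 0.25 on the log2 scale (adjusted p = 0.00239).

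Among 23 genes of IP3 production and removal, 1 rose at 0h, Inpp5a, a phosphatase that removes IP3 (9.04 ± 0.18 and 9.38 ± 0.025, 0.34, adjusted p = 6.14e-04), and 0 passed at 8h, with 4 at an unadjusted p of 0.05 or less in limma. Among 20 exchangers and other transporters, 1 rose at 0h, the sodium and calcium exchanger Slc24a4 (0.58, adjusted p = 3.25e-04), and 0 passed at 8h (5 unadjusted). Among 21 calcium sensors and buffers, Caln1 (0.50, adjusted p = 0.00175) and Kcnip2 (0.33, adjusted p = 0.00853), a partner of potassium channels, rose and Necab3 fell (-0.41, adjusted p = 0.00619) at 0h, and Necab1 rose at 8h (0.48, adjusted p = 0.00422). Among 24 calcium-dependent kinases and phosphatases, Rcan3, a regulator of calcineurin, rose at 0h (0.40, adjusted p = 9.10e-04), Camk1 fell (-0.46, adjusted p = 8.52e-04) and 0 passed at 8h (7 unadjusted). The median difference of the 6 lists at 0h lay between -0.04 and 0.13, beside 0.01 over all genes. Over all genes, 7.41% passed at 0h and 3.53% at 8h (27.4% unadjusted at 8h).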

How the data were processed

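Medial PFC of single mice was profiled on 47 arrays, and groups were taken from the exposure and time in the labels. The authors deposited log2 values for each probeset. Per the study's methods these were made with RMA in the affy package and adjusted with ComBat, in PFC for repeat group, which can shrink or add differences at 8h; the submitters' notes name RMA, and their versions were not given in the sources used here. Value columns not used numbered 0. Of 45037 probesets, 34945 had 1 symbol, 932 several and 9160 none listed.

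Values were used as deposited, without a filter. limma 3.58.1 in R 4.3.3 (data.table, version 1.17.8) fitted 8 group means to all probesets, with Benjamini-Hochberg adjustment over all of them and a threshold of FDR ≤ 0.01; every adjusted p is from limma. Confidence intervals are 95%. The code was tested on simulated data. The number of arrays limits the precision. The genes, lists and tests were chosen with earlier results of these data known, and the slopes on the striatal marker mean after seeing the values. Any gene of the rule and any Cacnb gene could be named; dimmer probesets were named where they passed or differed in sign from one that passed, and of each partner list up to 4 genes that passed at a time. Other settings tried were another probeset per gene, a filter on dim probesets, repeated quantile normalization, array weights, trended variances, repeat group or striatal level in the model, repeat group 1 alone, another FDR, fits of single times, and leaving out each mouse. Mouse numbers name separate animals.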

Additional observations from a re-analysis of the deposited data

Results flagged for a closer look

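A single mouse stood apart from its group in 20 of 288 combinations of gene and group (values in log2), where chance gives about 1 in 20. CIE 0h mouse 67 was low for Cacna1h (7.179, others 8.176 to 8.423), Cacna2d3 (9.87, others 10.65 to 10.78) and Ryr1 (6.476, others 7.099 to 7.332). CIE 0h mouse 17 was low for Cacnb1 (8.059) and Cacng7 (7.573, others 8.547 to 8.801). CIE 8h mouse 15, whose array correlated least with the others, was high for Ryr2 (11.55, others 11.07 to 11.15) and low for Cacng1 (4.042). CIE 8h mouse 23 was low for Cacna1s (4.251, others 4.493 to 4.551). CIE 7d mouse 7, with a striatal marker mean above 9, was high for Ryr3 (10.03, others 8.501 to 8.977) and Cacng4 (9.23). CIE 72h mouse 3 was low for Cacnb1 (8.209) and high for Cacnb2 (8.803), and CIE 72h mouse 35 was low for Cacng1 (4.119).

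Among the others, Cacna2d2 was high in CIE 0h mouse 43 (10.07) and Cacna2d1 in CIE 7d mouse 37 (11.9). In Ctrl mice, Cacnb2 was high in Ctrl 0h mouse 2 (8.607) and Cacna1h in Ctrl 7d mouse 18 (8.237), and Ryr3 was low in Ctrl 0h mouse 56 (7.809), Cacna1b in Ctrl 72h mouse 24 (9.942) and Atp2b1 in Ctrl 7d mouse 46 (12.84). The ethanol effect on Itpr2 differed between 8h and 0h (-0.4418 by the limma contrast of effects).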

How the results depend on the processing

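Itpr2 at 0h passed without each of the 12 mice in turn (0.32 to 0.37) and Cacna1s at 8h lost its call without 4 of 11 mice (-0.61 to -0.43). Without probesets suffixed _s_at or _x_at, Itpr2 was read from another probeset and reversed, to -0.068 at 0h and 0.039 for 8h against 0h. Cacna1b at 8h was 0.15 on the most variable probeset, 0.029 on the mean of probesets and 0.0020 in repeat group 1 alone, and 0.033 for 8h against 0h on the most variable probeset. Cacnb4 at 8h was -0.68 on the most variable probeset and -0.11 on the mean. The cause was not tested.

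The share of all genes that passed was taken at the main setting alone. A change in the counts below can therefore not be read as particular to these genes. The count of genes that passed, 1 at 0h, was 0 without probesets suffixed _s_at or _x_at or on the mean of probesets. It was 2 with repeat group as a term, in repeat group 1 alone, at FDR ≤ 0.05 or with 0h arrays alone (Itpr2 and Atp2a1), and 3 with array weights (Cacna1a added). It was 1 to 2 with a mouse left out, 2 without Ctrl 0h mouse 2 (Cacna1a added) or CIE 0h mouse 17 (Atp2a1 added). At 8h, the count of 1 was 0 with a mean log2 of 6 or more, where Cacna1s was not tested, and 0 with 8h arrays alone. It was 2 with repeat group as a term (Cacna1f added), 3 at FDR ≤ 0.05 and 5 with array weights (Atp2a1, Cacna1f, Cacna1s, Cacna2d4, Cacng6). With a mouse left out it was 0 to 3, namely 0 without Ctrl 8h mice 66, 75 or 79 or CIE 8h mouse 23, and 3 without CIE 8h mouse 40. At 72h the count of 0 was 1 at FDR ≤ 0.05 (Cacna1s), and 0 with any mouse left out. At 7d it was 0 under every setting run.

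For 8h against 0h the count of 1 was 0 without probesets suffixed _s_at or _x_at, on the most variable probeset and on the mean of probesets. It was also 0 with trended and robust variances, in repeat group 1 alone and with the striatal term, and 0 to 1 with a mouse left out. It was 0 without Ctrl 0h mice 2, 48 or 78, Ctrl 8h mice 75, 79, 42 or 50, CIE 0h mice 17, 43, 5 or 72, or CIE 8h mice 15 or 23, with Itpr2 between -0.44 and -0.39 and an adjusted p of at most 0.0206. For 7d against 0h the count of 0 was 1 with array weights, and 0 to 1 with a mouse left out (1 without Ctrl 0h mouse 2). For 72h against 0h it was 0 throughout. Over Ctrl times the count of 0 was 5 with array weights, 1 with repeat group as a term or in repeat group 1 alone, and 0 to 1 with a mouse left out (1 without Ctrl 8h mouse 32). The count of 2 genes with a striatal slope was 0 in the mice below 9, a setting chosen after seeing the data, and 2 to 3 with a mouse left out.

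Over the 33 genes at 0h the 95% confidence interval reached from 0.087 to 0.64 on either side (median 0.22), and 7 of 33 probesets had a mean under 6, near the dim end of the array. No paired analysis was possible because mouse numbers are not shared between groups.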
